A study of Homo sapiens with 12 samples.

Results

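Immediate early genes of the AP-1, EGR and MYC families, and IER3, were measured after knockdown of the glycosyltransferase gene GALNT1. The cells were HA22T and PLC5, both human hepatocellular carcinoma cell lines. The 10 genes are FOS, FOSB, FOSL1, JUN, JUNB, JUND, EGR1, ATF3, IER3 and MYC, chosen by name and found through the RefSeq transcript that each array probe was designed for. They are 10 of 20503 genes with a named probe, and they have 14 of the 50599 probes: ATF3 has 4 probes, IER3 has 2 and each of the other 8 genes has 1. Cells of each line, grown in DMEM with serum, received 10 nM of non-targeting siRNA (siControl) or of a siRNA pool against GALNT1 (siGALNT1) for 48 h. RNA of 3 replicates per line and siRNA, numbered 1 to 3, was hybridized to 12 one-color arrays in 4 groups. No growth factor was added according to the labels, and nothing in them says that the 3 replicates came from separate cultures, so p-values measure the spread between these samples, which may be technical.

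Immediate early genes are transcribed within minutes of a growth factor, serum or stress signal without new protein being made, and most of their mRNAs are degraded quickly. Signals from receptors such as EGFR reach them through RAS, the ERK kinases and the factors SRF and ELK1. Proteins of the FOS family bind DNA only as dimers with proteins of the JUN family, and these dimers are called AP-1. EGR1 is a zinc finger factor of the same response, ATF3 a stress-induced partner of the JUN proteins, IER3 a regulator of ERK signalling and survival, and MYC a factor that drives growth and proliferation genes.

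The level of a gene is given as log2 of its processed signal relative to the 75th percentile of all spots of its array that are not controls. A value of 0 is thus the level of a fairly bright spot and a difference of 1 is a doubling. Levels of different genes cannot be set against each other on this scale. Where a gene had several probes, the brightest with a value in every group was taken. Of the 58717 spots of an array that are not controls, 36679 to 48873 were well above background and 0 were saturated. The probe of EGR1 was well above background on 11 of 12 arrays. The probe chosen for ATF3 had values on only 9 arrays, since the spot was flagged as non-uniform on HA22T siControl 2 and on HA22T siGALNT1 1 and 2. The probes of the other 8 genes were well above background on all 12. The targeted gene checked the labels: GALNT1 by the probe with the smaller spread was 0.39 to 1.09 on HA22T siControl arrays and -5.02 to -2.84 on HA22T siGALNT1 arrays, and -0.41 to -0.02 on PLC5 siControl against -3.76 to -2.69 on PLC5 siGALNT1 arrays. HA22T arrays and the first pair of PLC5 arrays lay on 1 slide and the other 4 PLC5 arrays on another.

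The bases before the start of FOS, EGR1, JUN and JUNB are shown because these genes varied most between replicate numbers in HA22T among the genes that RefSeq's promoter table lists (7 of the 10). Each run is the 250 bases before the gene start in GRCh38.p14, 5′ to 3′ on the gene's strand. FOS lies on the plus strand (chr14:75278578-75278827), as do EGR1 (chr5:138465229-138465478) and JUNB (chr19:12791236-12791485), and JUN lies on the minus strand (chr1:58784048-58784297). Capitals mark every match on either strand to 5 motifs: the CArG box bound by SRF, the cyclic AMP response element as TGACNTCA, the EGR site as GCGNGGGCG, the AP-1 site and the TATA box. No match overlapped another.
FOS: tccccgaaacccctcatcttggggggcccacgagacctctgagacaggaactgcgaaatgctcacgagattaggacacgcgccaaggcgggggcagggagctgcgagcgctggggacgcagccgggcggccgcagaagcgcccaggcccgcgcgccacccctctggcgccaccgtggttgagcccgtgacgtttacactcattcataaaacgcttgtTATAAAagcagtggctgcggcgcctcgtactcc
EGR1: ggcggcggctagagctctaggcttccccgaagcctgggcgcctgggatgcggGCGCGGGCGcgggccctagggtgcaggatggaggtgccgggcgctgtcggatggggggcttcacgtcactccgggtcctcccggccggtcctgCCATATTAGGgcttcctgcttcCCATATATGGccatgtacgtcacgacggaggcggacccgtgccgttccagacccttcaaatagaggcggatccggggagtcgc
JUN: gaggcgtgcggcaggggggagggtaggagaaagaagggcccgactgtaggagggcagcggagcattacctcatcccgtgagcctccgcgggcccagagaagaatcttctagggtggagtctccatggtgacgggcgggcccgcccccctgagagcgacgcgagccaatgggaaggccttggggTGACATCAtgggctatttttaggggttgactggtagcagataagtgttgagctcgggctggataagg
JUNB: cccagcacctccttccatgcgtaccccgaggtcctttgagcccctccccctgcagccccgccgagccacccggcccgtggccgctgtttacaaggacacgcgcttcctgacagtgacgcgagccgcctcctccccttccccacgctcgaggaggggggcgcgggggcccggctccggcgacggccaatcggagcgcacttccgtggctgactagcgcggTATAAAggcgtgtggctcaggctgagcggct
EGR1 has 2 CArG boxes, the nearer one at 83 to 74 bases before its start, and 1.16% of the 35116 promoters in the table hold one in the same window. EGR1 also has an EGR site at 198 to 190 bases, a match found in 8.41% of promoters. JUN has TGACATCA at 67 to 60 bases before its start, and 6.87% of promoters hold a cyclic AMP response element of this form. A TATA box (TATAAA) lies 33 to 28 bases before the start of FOS and 31 to 26 before that of JUNB, against 10.7% of promoters with one anywhere in the window. An AP-1 site of the exact form TGANTCA, present in 6.57% of promoters, is in none of the 4 windows. This says nothing of AP-1 sites of another form or of sites elsewhere.

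Knockdown of GALNT1 moved none of the 10 genes past the threshold in either line. The comparison asks which mRNAs change when GALNT1 is silenced. In HA22T 0 of 10 genes had an adjusted p (limma, Benjamini-Hochberg over all counted probes) below 0.05, against a background of 0.00275% of 36327 probes, which is 1 probe, of GALNT1 itself. In PLC5 0 of 10 genes passed, against 0% of 38070 probes. GALNT1 itself did not pass in PLC5, with log2 differences of -3.03 and -3.72 by its probes. The test could thus miss large differences, and a gene not called is not shown to be unchanged. At an unadjusted p below 0.05 limma gave 1086 probes in HA22T and 508 in PLC5, and 0 of the 10 genes in either line. The study's own thresholds, a fold change of at least 1.5 with an unadjusted p below 0.05, were applied here to limma's p rather than to the study's test. They were met by 0 of the 10 genes in HA22T against 2.87% of all probes, and by 0 in PLC5 against 1.29%. The 3 siGALNT1 arrays did not stand clear of the 3 siControl arrays by the probe chosen for any gene: 0 of 9 in HA22T against 8.83% of probes, and 0 of 10 in PLC5 against 4.11%. Over the 10 genes the median log2 difference, siGALNT1 minus siControl, was -0.08 in HA22T and 0.06 in PLC5, beside medians over all counted probes of -0.06 and 0.01. The difference of the siGALNT1 change between the lines also passed for 0 of 10 genes against 0% of 39100 probes, and 952 of those probes, none of the 10 genes among them, had an unadjusted p below 0.05. With 3 arrays a group an exact permutation test cannot go below 0.1.

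FOS, the inducible partner of JUN in AP-1, had levels of -1.18, 0.68 and 4.16 on the HA22T siControl arrays 1, 2 and 3, and of -1.48, 0.91 and 3.88 on the HA22T siGALNT1 arrays. On PLC5 siControl arrays it was -0.41, -0.35 and 1.63, and on PLC5 siGALNT1 arrays -0.45, 0.28 and 1.18. The groups of each line overlapped over almost their whole range, and the array numbered 3 was the highest in all 4 groups. The HA22T siControl mean was 1.22 ± 2.71 (SD, n = 3). The HA22T siGALNT1 mean was 1.1 ± 2.68 (SD, n = 3), which gave a log2 difference of -0.12 with a 95% interval from -3.23 to 2.99 (limma, adjusted p = 1.00). In PLC5 the difference was 0.04, from -3.07 to 3.15. The fit shared its estimate of the spread over the 4 groups, so the PLC5 interval of each gene also carries the HA22T spread. For FOS the SD was 1.16 in PLC5 siControl and 0.82 in PLC5 siGALNT1.

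FOSB, another inducible member of the FOS family, ranged over up to 1.20 within a group. It was -1.05, -0.95 and 0.05 on HA22T siControl arrays and -0.94, -0.93 and -0.47 on HA22T siGALNT1 arrays. In PLC5 it was -0.96, -0.76 and -1.07 with siControl and -1.16, -1.35 and -0.15 with siGALNT1. All 4 groups overlapped, and the log2 difference on knockdown was -0.13 (95% interval -0.96 to 0.70) in HA22T and 0.04 (-0.79 to 0.88) in PLC5 by the interval of limma's fit.

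FOSL1, which encodes FRA-1, a FOS family protein often found in invasive tumor cells, was high in HA22T and low in PLC5. Its levels were 3.63, 2.28 and 1.52 on HA22T siControl arrays and 3.96, 2.56 and 1.80 on HA22T siGALNT1 arrays. On the PLC5 arrays it was -3.07, -3.09 and -3.08 with siControl and -3.10, -3.15 and -2.76 with siGALNT1. Within each line the 2 groups overlapped, while all 6 HA22T arrays lay above all 6 PLC5 arrays. The siGALNT1 array was the higher one in each of the 3 same-numbered HA22T pairs, by 0.32, 0.28 and 0.28, and the difference of 0.30 did not pass the test (95% interval -0.95 to 1.54, adjusted p = 1.00, limma). In PLC5 the difference was 0.07 (-1.17 to 1.32).

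Of the JUN family, JUN, the founding AP-1 subunit, was -2.91, -2.32 and -1.16 on HA22T siControl arrays and -3.22, -2.85 and -1.64 on HA22T siGALNT1 arrays. Each HA22T siGALNT1 array was lower than the siControl array of its number, by amounts of -0.32, -0.53 and -0.48, but the groups overlapped and the difference of -0.44 did not pass (95% interval -1.78 to 0.90, adjusted p = 1.00, limma). With normexp background correction it was -0.0271. In PLC5 JUN was -3.43, -3.44 and -1.72 with siControl and -3.29, -2.69 and -2.09 with siGALNT1, a difference of 0.17 (-1.16 to 1.51).

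JUNB, an AP-1 subunit that can hold JUN in check, was 0.82, 1.99 and 3.04 on HA22T siControl arrays and 0.75, 2.28 and 2.75 on HA22T siGALNT1 arrays. In PLC5 it was 2.95, 1.86 and 2.17 with siControl and 2.67, 2.01 and 2.00 with siGALNT1. The array numbered 1 was the lowest in both HA22T groups and the highest in both PLC5 groups. JUND, the most constantly made JUN protein, was 2.40, 2.83 and 3.81 on HA22T siControl arrays, 1.87, 3.02 and 3.64 on HA22T siGALNT1 arrays, and between 2.75 and 3.27 on all 6 PLC5 arrays. The knockdown difference of JUNB was -0.02 in HA22T and -0.10 in PLC5, and that of JUND was -0.17 and 0.11, all within overlapping groups.

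EGR1 was -3.55, -2.53 and 1.36 on HA22T siControl arrays and -4.42, -4.67 and 1.39 on HA22T siGALNT1 arrays. On PLC5 arrays it was -1.0, -1.68 and 0.43 with siControl and -1.74, -0.70 and -0.46 with siGALNT1. In HA22T both arrays numbered 3 stood far above the other 4, and the groups overlapped in both lines. EGR1 had the largest knockdown difference of the 10 genes in HA22T, -0.99, with an interval from -4.42 to 2.43 (95%, adjusted p = 1.00, limma), and -0.22 in PLC5 (-3.64 to 3.21). With normexp background correction the HA22T difference of EGR1 was -0.32, smaller in size than that of MYC at 0.43. The probe of EGR1 was well above background on 11 of 12 arrays. The size of its HA22T difference rests on low values, down to -4.67, and is uncertain.

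ATF3 was 1.45 and 2.41 on HA22T siControl 1 and 3 and 2.09 on HA22T siGALNT1 3 by the brightest probe, with no value on the other 3 HA22T arrays, so the HA22T difference of 0.17 rests on 2 arrays against 1. On PLC5 arrays it was 2.43, 2.62 and 2.37 with siControl and 1.78, 2.17 and 3.02 with siGALNT1, a difference of -0.15 (95% interval -1.06 to 0.76, limma). The other 3 ATF3 probes, which had values on all 12 arrays, differed on knockdown by -0.07, 0.06 and 0.46 in HA22T and by 0.45, 0.18 and -0.41 in PLC5. The last of these in HA22T (siControl -1.81 to -1.39, siGALNT1 -1.31 to -0.96) and the second in PLC5 (siControl -2.22 to -2.17, siGALNT1 -2.12 to -1.90) had siGALNT1 arrays that all lay above the siControl arrays. The probes disagreed in direction within each line, and none passed the test.

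IER3 was 3.91, 4.28 and 5.02 on HA22T siControl arrays and 3.65, 4.40 and 5.01 on HA22T siGALNT1 arrays. On PLC5 arrays it lay between 4.99 and 5.37 in both groups. The knockdown difference was -0.05 (95% interval -0.85 to 0.76) in HA22T and 0.08 (-0.73 to 0.89) in PLC5, and the second IER3 probe gave -0.15 and -0.07 (limma). MYC, whose probe is spotted 10 times on each array, was 2.83, 3.42 and 3.04 on HA22T siControl arrays and 2.78, 3.97 and 3.30 on HA22T siGALNT1 arrays. In PLC5 it was 1.44, 0.78 and 1.55 with siControl and 1.54, 1.58 and 1.48 with siGALNT1. Groups with the 2 siRNAs overlapped in both lines, with differences of 0.26 (-0.48 to 0.99) in HA22T and 0.28 (-0.46 to 1.01) in PLC5.

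**Figure D1:**
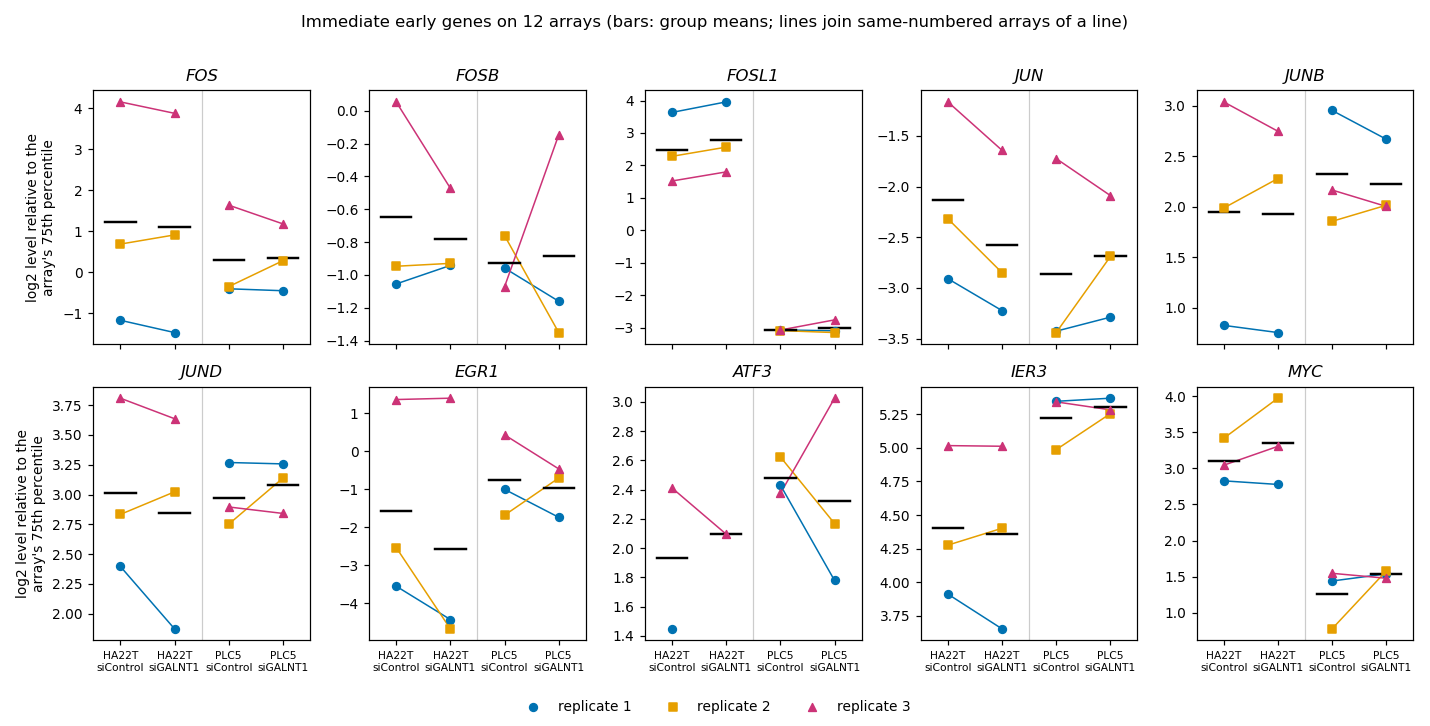
Level of the 10 genes on each of the 12 arrays, as log2 relative to the array's 75th percentile (vertical axis, own scale per gene), by line and siRNA. Points are arrays, black bars are group means, and lines join the siControl and siGALNT1 arrays of the same replicate number. FOSL1 and MYC separate the lines, and FOS in HA22T runs from about -1.48 to 4.16 with same-numbered arrays side by side.

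**Figure D2:**
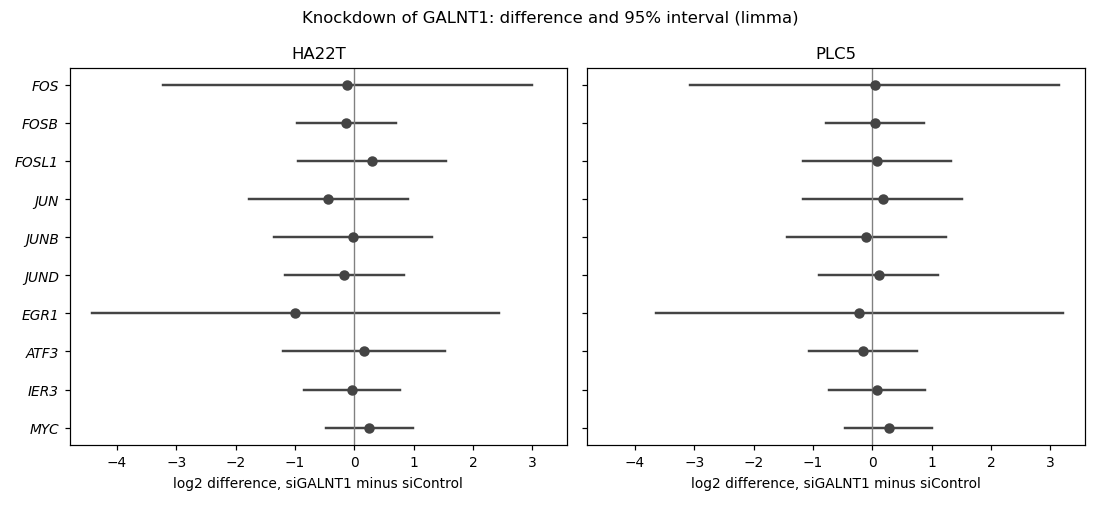
Log2 difference, siGALNT1 minus siControl, for the 10 genes in HA22T (left) and PLC5 (right), with 95% intervals of limma's fit on the horizontal axis. Every interval includes 0, and those of FOS and EGR1 are the widest. The spread was shared over all groups, so intervals in PLC5 also carry the spread of HA22T.

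The genes that belong with them in the same response were likewise not called on knockdown. Of 24 other immediate early genes, 21 were counted in HA22T and 23 in PLC5, and 0 passed in either line, with median log2 differences of 0.01 and 0.18. The largest differences were 0.64 for GADD45A, a growth arrest gene, and -0.41 for KLF4, a zinc finger factor, in HA22T, and 0.66 for EGR3, a relative of EGR1, and 0.57 for FOSL2, the remaining FOS family gene, in PLC5 (adjusted p = 1.00 for each, limma). EGR3 was well above background on only 1 of 3 PLC5 siControl and 2 of 3 PLC5 siGALNT1 arrays, so its difference lies near background. Of 17 kinases and factors upstream of the 10 genes, 0 passed in either line, and the largest were ATF1 at -0.64 and the ERK-activated kinase gene RPS6KA3 at -0.26 in HA22T, and SRF at 0.29 and the kinase gene MAPK9 at 0.27 in PLC5. Of 13 dimer partners and corepressors, 0 passed, with MAFG at -0.42 and JDP2 at -0.40 in HA22T and DDIT3 and the EGR1 corepressor gene NAB1 at 0.29 and 0.28 in PLC5. Of 10 counted genes of the MYC network, 0 passed, with MXD4 at 0.42 and MAX, the partner of MYC, at -0.35 in HA22T and MYCBP at 0.29 and MXD3 at -0.20 in PLC5. Of 12 known MYC target genes, 0 passed, with the telomerase gene TERT at 0.57 and CDK4 at -0.48 in HA22T and ODC1, the polyamine enzyme gene, at 0.43 and PPAT at 0.36 in PLC5. Among marker lists, 0 of 8 counted hepatocyte markers passed in HA22T and 0 of 9 in PLC5, with AFP at -1.20 and ALB at -0.72 in HA22T and AFP at -0.79 and APOB at 0.26 in PLC5. AFP was well above background on 2 of 3 HA22T siControl and 1 of 3 HA22T siGALNT1 arrays and on 2 of 3 PLC5 siGALNT1 arrays, and ALB on 1 of 3 HA22T siGALNT1 arrays, so these differences lie near background. Of the counted markers of other cell types, 0 of 7 passed in HA22T and 0 of 6 in PLC5, with CD3E at 0.69 and PECAM1 at -0.68 in HA22T and PTPRC at -0.32 and VWF at 0.20 in PLC5. PECAM1 was well above background on 2 of 3 HA22T siGALNT1 arrays. The medians of the kinase, dimer partner, MYC network and MYC target lists were -0.12, -0.21, 0.06 and -0.15 in HA22T and 0.09, 0.12, 0.00 and 0.12 in PLC5.

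In HA22T the levels of most of the 10 genes spread further between replicate numbers than between siRNAs. FOS averaged -1.33, 0.80 and 4.02 over the siControl and siGALNT1 arrays numbered 1, 2 and 3, a spread of 5.34 or 40.5-fold, while the 2 arrays of a pair were within 0.30 of each other. EGR1 averaged -3.99, -3.60 and 1.38, a spread of 5.36 or 41.1-fold, with a pair differing by up to 2.14. Its probe was well above background on 11 of 12 arrays, so the sizes that rest on its lowest HA22T values are uncertain. Among 31496 probes with values on all arrays, EGR1 and FOS ranked 2 and 3 for this spread. JUN, JUNB, JUND and IER3 were also lowest on the arrays numbered 1 and highest on those numbered 3, by 1.66, 2.11, 1.59 and 1.23. FOSL1 ran the other way, at 3.80, 2.42 and 1.66, a spread of 2.14. FOSB spread by 0.79 and MYC, highest on the arrays numbered 2, by 0.89. The median spread over the 9 genes with all pairs was 1.66, beside 0.54 over all probes.

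In PLC5 the spread between numbers was smaller. FOS averaged -0.43, -0.04 and 1.41, a spread of 1.84, JUN spread by 1.45, EGR1 by 1.35 and JUNB by 0.88, and the 6 other genes by 0.20 to 0.59. FOS, JUN and EGR1 were highest on the arrays numbered 3, as in HA22T, and JUNB on those numbered 1. FOSL1, which spread by 2.14 in HA22T, spread by 0.20 in PLC5. The median over the 10 genes was 0.52, against 0.53 over all probes.

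An F test of the replicate number within a line, with siRNA in the model, was added after the data had been seen. In HA22T 0 of 9 genes passed at an adjusted p below 0.05 (limma), against 0.00318% of 31496 probes, and the lowest adjusted p values were 0.0522 for FOS, 0.103 for EGR1 and 0.105 for FOSL1. At an unadjusted p below 0.05 it gave 7 of the 9, FOS, FOSL1, JUN, JUNB, JUND, EGR1 and IER3, against 16.2% of probes. The call depended on the processing: with a trend in limma's prior 7 of 9 genes passed, the same 7, against 2.39% of probes, and with normexp background correction 4 passed, FOS, FOSL1, JUNB and EGR1, against 0.21%. In PLC5 0 of 9 genes passed, against 0% of 32365 probes, and the lowest adjusted p was 0.306, for FOS (limma). At an unadjusted p below 0.05 it gave 3 of the 9, FOS, JUN and JUNB, against 11.6% of probes. Same-numbered arrays of a line lay next to each other on the slide and nothing in the labels says what a number shared, so the culture, the day and the position cannot be told apart. In PLC5 the arrays numbered 1 lay on a different slide, with a different scan, from those numbered 2 and 3. The replicate number in PLC5 thus also holds a slide difference, which it does not in HA22T. In HA22T the spots well above background numbered 44641 and 48208 on the arrays numbered 1, 46933 and 36679 on those numbered 2, and 39866 and 38756 on those numbered 3, and their part in the spread was not tested.

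**Figure D3:**
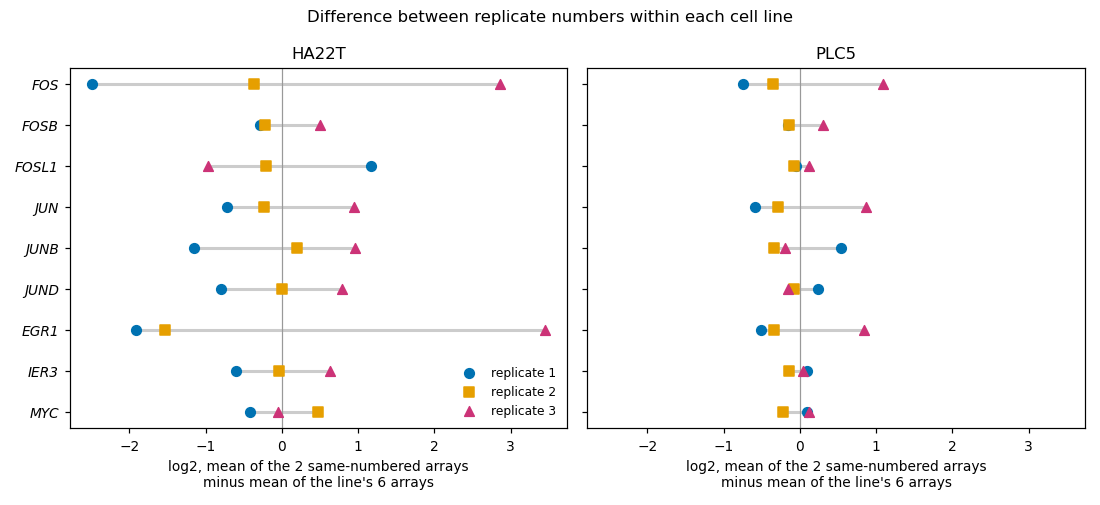
Mean of the 2 same-numbered arrays (siControl and siGALNT1) minus the mean of the line's 6 arrays, log2, for 9 genes (ATF3, with missing values, is left out) in HA22T (left) and PLC5 (right). In HA22T FOS, FOSB, JUN, JUNB, JUND, EGR1 and IER3 have replicate 3 on the right and replicate 1 on the left, and FOSL1 has them reversed.

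With the replicate number as a block, which the correlated deviations of same-numbered HA22T arrays allowed, the HA22T intervals narrowed and the calls stayed at 0 of 9 genes with a value (lowest unadjusted p = 0.0909, for EGR1, limma). The interval of the FOS difference became -0.76 to 0.52, that of EGR1 -2.19 to 0.21, that of JUN -1.06 to 0.17 and that of FOSL1 -0.18 to 0.77. For JUNB, JUND, FOSB, IER3 and MYC the blocked intervals lay within -0.91 and 0.86. The block took numbers as pairs in PLC5 too, with a shared estimate of the spread, so these intervals also rest on the PLC5 arrays.

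Deviations from the group means were set against those of FOS. Over the 12 arrays, as a description, Pearson's r with FOS was 0.92 for EGR1, 0.92 for IER3, 0.91 for JUN, 0.83 for JUND, 0.75 for JUNB and 0.66 for FOSB, and it was 0.32 for MYC and -0.87 for FOSL1. For ATF3 it was 0.59 over 9 arrays. Its deviations in HA22T were set by the centring: 0 for the only siGALNT1 value, and -0.48 and 0.48 for the siControl values. The 12 points share the 2 lines, the 3 numbers and the slides, and HA22T carries most of the spread. Within the 6 PLC5 arrays r was 0.997 for JUN and 0.934 for EGR1, between 0.26 and 0.49 for IER3, FOSB, MYC, ATF3 and FOSL1, and -0.45 for JUNB and -0.53 for JUND. The genes whose levels were most like those of FOS over the 12 arrays, a search added after the data had been seen, were GRB10, the gene of an adaptor of receptor kinases (r = 0.914), JUN (r = 0.897) and ZBTB22 (r = 0.869), out of 15661 genes.

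Of the other immediate early genes, 20 were tested for the replicate number in HA22T and 0 passed, while 10 had an unadjusted p below 0.05 (limma) against 16.2% of probes. Their spread between numbers ran from 0.04, for EGR4, to 3.02, for DUSP1, with a median of 0.91, and 15 of 20 lay above the median of 0.54 over all probes. The array pair numbered 1 was lowest and that numbered 3 highest for 10 of them, against 13.1% of probes, and PPP1R15A, a stress response gene, ran the other way at 2.87, 1.82 and 1.70. The 4 genes with the widest spread are named here after their values were seen. DUSP1, the gene of a phosphatase that switches off MAP kinases, averaged -2.53, -0.43 and 0.49 over the arrays numbered 1, 2 and 3, and IER2 1.85, 1.93 and 3.55. The matricellular gene CCN2 averaged 1.98, 3.70 and 4.18, and its relative CCN1 4.06, 5.87 and 5.61. Their adjusted p values for the number were 0.106 for DUSP1, 0.126 for IER2, 0.134 for CCN2 and 0.141 for CCN1 (limma).

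Between the lines, FOSL1 and MYC were lower in PLC5 than in HA22T, and no other gene of the 10 was called. In the siControl arrays 2 of 10 genes had an adjusted p below 0.05 (limma), a share near the background of 22.0% of 38011 probes. The same pair were the 2 of 9 genes whose siControl groups did not overlap, against 42.3% of probes. FOSL1 averaged -3.08 ± 0.01 (SD, n = 3) in PLC5 and 2.48 ± 1.07 (SD, n = 3) in HA22T, a log2 difference of -5.56 with a 95% interval from -6.80 to -4.31, which is 47.1-fold (adjusted p = 3.3e-05, limma). MYC averaged 1.26 ± 0.42 (SD, n = 3) in PLC5 and 3.09 ± 0.30 (SD, n = 3) in HA22T, a difference of -1.84 from -2.57 to -1.11, which is 3.58-fold (adjusted p = 0.00202, limma). On the 1 slide that held both lines, PLC5 siControl 1 had FOSL1 at -3.07 and MYC at 1.44, below the lowest HA22T siControl arrays at 1.52 and 2.83.

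IER3 was higher in PLC5 by 0.82 (95% interval 0.01 to 1.63) but did not pass (adjusted p = 0.145, limma), and its second probe differed by 0.93 (adjusted p = 0.1). The groups of the brighter probe overlapped and those of the second did not. The other 7 genes had line differences between -0.93, for FOS, and 0.82, for EGR1, and the intervals were wide, from -4.04 to 2.18 for FOS and from -2.60 to 4.25 for EGR1. Among the 4 group means of each gene, FOSL1 ranged over 5.85, MYC over 2.10 and EGR1 over 1.81. In the order of these means FOSL1 was highest in HA22T siGALNT1, then HA22T siControl, PLC5 siGALNT1 and PLC5 siControl, and MYC had the same order, where neighbours of one line did not differ beyond their spread.

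**Figure D4:**
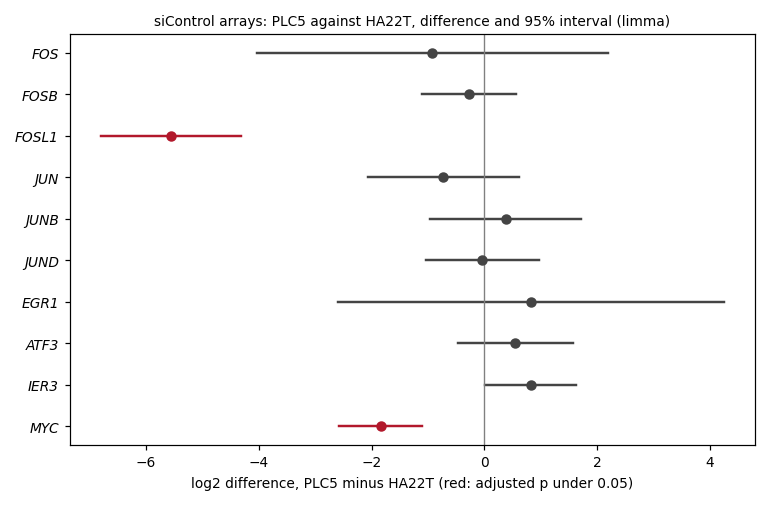
Log2 difference between the siControl arrays of the lines, PLC5 minus HA22T, with 95% intervals of limma's fit for the 10 genes. FOSL1 at -5.56 and MYC at -1.84, in red, are the genes past the threshold.

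The genes whose levels were most like those of FOSL1 over the 12 arrays were MOK, a kinase gene (r = 0.997), CYP1B1, a cytochrome P450 gene (r = 0.994), and NAV3 (r = 0.992), out of 15661 genes. The 2 lines make up most of this likeness. All 3 genes were also highest on the HA22T arrays numbered 1: CYP1B1 was 3.21, 1.33 and 0.73 on HA22T siControl arrays and between -4.18 and -3.61 on the PLC5 arrays.

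Genes of the lists around the 10 were also called between lines, beside the 22.0% of all probes. Of 22 counted other immediate early genes, 5 were higher and 8 lower in PLC5, with a median of -0.22 beside -0.04 over all counted probes. With the slide, which partly follows the line, as a block 9 of these 22 were called, and KLF2, NR4A3, BHLHE40 and CCN2 no longer passed (adjusted p = 0.0694, 0.0542, 0.148 and 0.0537, limma). CCN1 was lower by 5.39 and SGK1, a serum-induced kinase gene, by 3.37 (signed differences -5.39 and -3.37, adjusted p = 4.42e-05 and 1.39e-05, limma). NR4A1, an inducible nuclear receptor gene, was not well above background on any HA22T siControl array and was at least 37.1-fold higher in PLC5 (adjusted p = 6.44e-05, limma), against a floor set by the lowest signal well above background on each array. Of 17 upstream kinases and factors 1 was higher and 3 lower (median -0.27), a share near that of all probes, led by RPS6KA3 at 2.64, the SRF partner gene ELK3 at -2.0 and MAP2K2, which encodes an ERK kinase, at -1.34. Of 13 dimer partners and corepressors 2 were higher and 2 lower (median 0.09), led by the stress factor gene ATF4 at 1.78, JDP2 at -1.65 and NAB1 at 1.40. With the slide as a block JDP2 did not pass (adjusted p = 0.0756, limma) and 3 of the 13 were called.

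For MYC, 3 of 10 counted genes of its network were lower in PLC5 and 0 higher (median -0.07): MXD3 at -1.17, MAX at -0.99 and MYCL at -0.83. With the slide as a block 0 of these 3 passed (adjusted p = 0.0538, 0.102 and 0.102, limma). Of 12 MYC target genes 1 was lower, PPAT at -1.09, and 0 higher (median -0.22). With the slide as a block PPAT did not pass (adjusted p = 0.141) while ODC1, higher by 2.56, did (adjusted p = 0.0415, limma). MYC itself kept an adjusted p of 0.0147 and FOSL1 one of 3.96e-04 with that block (limma).

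Some markers of cell type also differed between the lines. Of 9 hepatocyte markers 6 were higher in PLC5 and 0 lower (median 3.24), led by the apolipoprotein gene APOB at 9.55, SERPINA1 at 5.69 and APOA1 at 5.03. The others, AFP at 0.30 and the keratin genes KRT18 at -0.26 and KRT8 at -0.88, were not called. APOB was well above background on 2 of the 3 HA22T siControl arrays and TTR on 1. Markers of other cell types included VIM, a mesenchymal marker, lower in PLC5 by a difference of -5.54, CD14 at -3.86 and PECAM1 at 5.41, so that of 6 counted 1 was higher and 2 lower, and COL1A2 and ACTA2 were well above background on 0 of 3 PLC5 siControl arrays. The part of these markers in the differences of FOSL1 and MYC was not tested.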

How the data were processed

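RNA of 12 samples (4 groups of 3) was labeled and hybridized by the authors to one-color Agilent arrays. Per the file headers, the deposited intensity of a spot is the processed signal, with background subtracted, of Agilent Feature Extraction (version 10.5.1.1, per the submitters' processing notes), and a second, deposited table in log2 units served as an alternative. Processed signals were scaled to each array's 75th percentile over all spots that are not controls. Non-uniform outlier spots counted in this percentile but were left out of the values, which were averaged per probe. Probes were named through RefSeq transcripts (28174 of 50599 matched). The 4 group means were fitted with limma 3.58.1 in R 4.3.3 without covariates, with Benjamini-Hochberg adjustment over the probes that 3 or more of the 6 arrays compared showed well above background. The 4 groups shared an estimate of the spread for each probe. The number of arrays limits the precision.

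The 10 genes and the gene lists were chosen with earlier results of these data known. Named were the 10 genes, GALNT1, from each list the 3 largest differences among those past the threshold between lines and the 2 largest on knockdown, and the 3 genes most like FOSL1, the gene with the widest range of group means. After subtraction of group means, same-numbered arrays correlated at 0.483, 0.186 and 0.328 in HA22T, each over the limit of 0.1 for pairing. In PLC5 they correlated at 0.559, 0.0448 and 0.199, so number 2 fell under the limit. The replicate block still took numbers as pairs in both lines. For the line difference it treated a number as shared by the lines, where arrays of the same number and siRNA correlated at -0.176 to 0.225. The pairing comes from the values. Alternatives covered background correction, scaling, the deposited table, filters, spots, slide and replicate blocks, the probe of a gene, the prior, the methods' t-test and each array left out. The fit was tested on simulated data.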

Additional observations from a re-analysis of the deposited data

How the results depend on the processing

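The 2 calls between lines, FOSL1 and MYC, and the 0 calls on knockdown in either line and between lines kept their number under every alternative run, the replicate block, the slide block and the methods' t-test included (the t-test did not cover the difference between lines of the knockdown change). With the replicate block 0 genes passed in HA22T, 0 in PLC5 and 2 between lines, and it changed no call. In PLC5 the blocked interval of FOS was -0.60 to 0.69. The line difference ran from -5.66 to -5.34 for FOSL1 and from -1.95 to -1.74 for MYC. Median scaling moved the median line difference over all counted probes by -0.11 and normexp by -0.15, and normexp moved the median HA22T knockdown difference by 0.19, with single genes moved by other amounts. Signs of differences that had not passed turned as follows: with quantile normalization JUNB in HA22T (0.0689) and JUND between lines (0.0694), with the slide block JUND between lines (0.20), and with the mean over probes ATF3 in PLC5 (0.0726) and between lines (-0.11). For the replicate number in HA22T, 4 genes passed with normexp (0.21% of all probes), 1 with quantile normalization (FOS, 0.0159%), 1 with a filter on all 6 arrays (FOS, 0.00848%), 4 with the mean over probes (FOS, FOSL1, JUNB and EGR1, against 0.548% of all genes) and 7 with a trend (2.39%), and 0 under the others, each array left out included. The cause was not tested.

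Leaving out each array in turn gave the HA22T knockdown difference as log2 values of -1.50 to 1.35 for FOS, -0.33 to 0.22 for FOSB, -0.30 to 0.87 for FOSL1, -0.91 to 0.0411 for JUN, -0.59 to 0.56 for JUNB, -0.57 to 0.32 for JUND, -2.97 to 0.47 for EGR1, -0.32 to 0.65 for ATF3, -0.37 to 0.30 for IER3 and -0.0545 to 0.54 for MYC. For the PLC5 knockdown difference the values were -0.38 to 0.71 for FOS, -0.33 to 0.28 for FOSB, -0.0464 to 0.15 for FOSL1, -0.13 to 0.74 for JUN, -0.33 to 0.22 for JUNB, -0.00348 to 0.26 for JUND, -0.68 to 0.37 for EGR1, -0.50 to 0.12 for ATF3 and -0.0418 to 0.14 for IER3. For the line difference the values were -2.13 to 0.54 for FOS, -0.48 to 0.0708 for FOSB, -0.19 to 0.92 for JUNB, -0.35 to 0.36 for JUND and -0.16 to 2.29 for EGR1. None of these passed the test in any run, so 3 arrays a group did not settle their direction. ATF3 in HA22T had no value without siGALNT1 3.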
